A study of Caenorhabditis elegans with 8 samples.

Results

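The *far* genes of *C. elegans* encode the fatty acid and retinol binding proteins. They were taken by symbol, and the WBcel235 annotation names 8 of them, *far-1* to *far-8*, among the 46778 genes counted in each library. The family was chosen by the levels of *far-3*, with its overlapping neighbour *far-5*, in the strains with and without *mbl-1*. These 2 genes are therefore described without a test in all comparisons and interactions. The other genes were tested across all genes.

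FAR proteins are small, helix-rich proteins found only in nematodes, and bind fatty acids and retinol in a hydrophobic cavity. Parasitic nematodes release members of the family into their hosts, and the *C. elegans* proteins are named for the same lipid binding. Nematodes use dietary and self-made fatty acids in membranes, in fat stores and in the yolk that the intestine makes for the oocytes. No separate role is assumed here for the single members.

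RNA came from whole L4 animals that had been synchronised as L1 larvae, grown on OP50 bacteria and extracted with TRIzol. The study sequenced 16 libraries, a pair of biological replicates for each of 8 strains, to ask how the splicing regulator MBL-1 acts on the touch receptor neurons (TRNs). In 4 strains the libraries did not keep the strand: *mec-7(u278) mbl-1(tm1563)*, *mbl-1(tm1563)*, *mec-7(u278)* and the wild type. In the other 4 strains they did: *mbl-1(tm1563); mec-3(unk206)*, *mec-3(syb8382)*, *mec-3(u184)* and *mec-3(unk206)*. The *tm1563* allele is a deletion in *mbl-1* and served as its loss of function. The *u278* allele changes the TRN β-tubulin MEC-7 and makes microtubules hyperstable. The *u184* allele was the null of *mec-3*, a homeobox gene that sets TRN fate. The edited alleles leave only a short *mec-3* product in *syb8382* and only the long *mec-3a* isoform in *unk206*. All strains, the wild type included, carried a TRN reporter of *mec-17p::RFP*. The reporter was the insertion *uIs134* on chromosome V in *mec-3(syb8382)* and *mec-3(u184)*, and *uIs115* on chromosome IV in the remaining strains. Each mutant was 1 strain, so other differences between strains cannot be told apart from the named allele. In RNA from whole animals, fewer cells that express a gene and less RNA per cell cannot be told apart either.

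Between 22296336 and 23180583 fragments per library were counted on genes when strand was disregarded. All 29 markers of intestine, body wall muscle, hypodermis, neurons, pharynx and germline had counts in every library, which is what whole animals should show, and the lowest was *ceh-22* at 0.08 CPM. The libraries also differed in genes that switch on around the L4 to adult transition. The summed level of the 6 vitellogenin (yolk protein) genes ranged from 396 to 57751 CPM (normalised counts scaled to a common library total), and differed 34.6-fold between both *mbl-1(tm1563)* libraries. The part of such timing in the results below was not tested, and its values are given beside them. The *mec-3* count was 0.14 CPM in both *mec-3(u184)* libraries, against 1.37 and 1.89 CPM in *mec-3(unk206)*.

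The family occupies 4 chromosomes. *far-1* (WBGene00001385) lies on the minus strand of chromosome III between 9080371 and 9081179 in WBcel235, and *far-2* (WBGene00001386) on the plus strand between 9081828 and 9082511. They diverge from each other with 648 bases between them. *far-8* (WBGene00001392) is far away on the same chromosome, between 842930 and 843802 on the plus strand. *far-6* (WBGene00001390) lies on chromosome IV between 13328359 and 13329314, and *far-7* (WBGene00001391) on chromosome II between 319789 and 321110, both on the plus strand.

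A group of 3 members sits on chromosome V. *far-5* (WBGene00001389, 12995569 to 12996836, plus strand) and *far-3* (WBGene00001387, 12996787 to 12997522, minus strand) converge, and their last exons share 50 bases at the 3′ ends. *far-4* (WBGene00001388, 12998427 to 12999659, minus strand) lies upstream of *far-3*, with 904 bases between its 3′ end and the start of *far-3*. Each of the 3 genes has 2 exons. The shared bases are a small part of the 673 exon bases of *far-3* and of the 655 exon bases of *far-5*. Because the 2 genes are read from opposite strands, a library that does not keep the strand cannot assign a fragment that touches the shared bases.

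**Figure D1:**
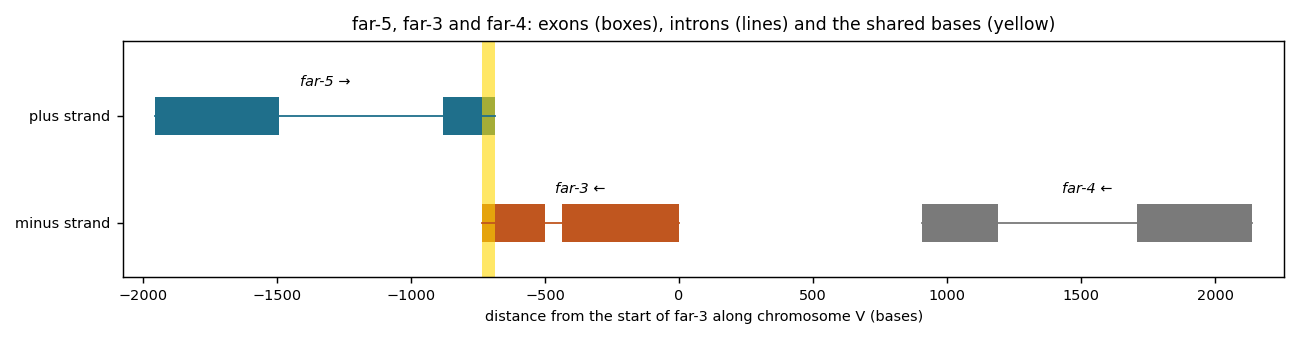
Exon map of *far-5*, *far-3* and *far-4* drawn to scale, with distance in bases from the start of *far-3* on the x axis and the strand on the y axis; boxes are exons, lines are introns and arrows give the direction of transcription. The yellow band marks the 50 bases shared by the 3′ ends of *far-5* and *far-3*.

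*far-1* and *far-2* supplied almost all *far* RNA. Together they held between 95.9% and 97.7% of the *far* counts of a library, and the whole family held between 0.504% and 0.657% of all gene counts. Per kilobase of exon, the median level over the 16 libraries was 7099 CPM for *far-2* and 2170 CPM for *far-1*. It was 89.7 CPM per kilobase for *far-8* and 84.6 for *far-6*, so these levels did not separate. *far-5*, *far-3* and *far-7* were lower, with medians of 12.8, 9.30 and 6.02 CPM per kilobase, and *far-4* had a median of 0.30. The CPM values in this text were normalised by the trimmed mean of M values (TMM) within each kind of library. Strains of different kinds are therefore set side by side without a test, since strain and kind of library cannot be told apart between them. For *far-3* and *far-5* in the unstranded libraries, the length used leaves out the shared bases.

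The members differed in how much their level moved. *far-2* stayed between 3250 and 5020 CPM over all 16 libraries, a 1.54-fold range, and *far-8* between 60.3 and 92.1 CPM, a 1.53-fold range. *far-6* had a 1.65-fold range and *far-1* a 3.42-fold range. *far-5* varied 4.15-fold and *far-7* 4.09-fold. *far-3* ranged from 1.54 to 28.2 CPM, which is 18.4-fold. These ranges span both kinds of library, and within a kind *far-3* ranged 11.9-fold (unstranded) and 7.88-fold (strand-specific). Within a strain, the 2 libraries of *far-3* differed by at most 2.07-fold, in *mec-7(u278) mbl-1(tm1563)*, so most of its range within a kind lay between strains. *far-4* had only 1 to 14 counts per library, and 5 of its libraries were at or under 3 counts. Its levels could not be ordered at this depth.

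**Figure D2:**
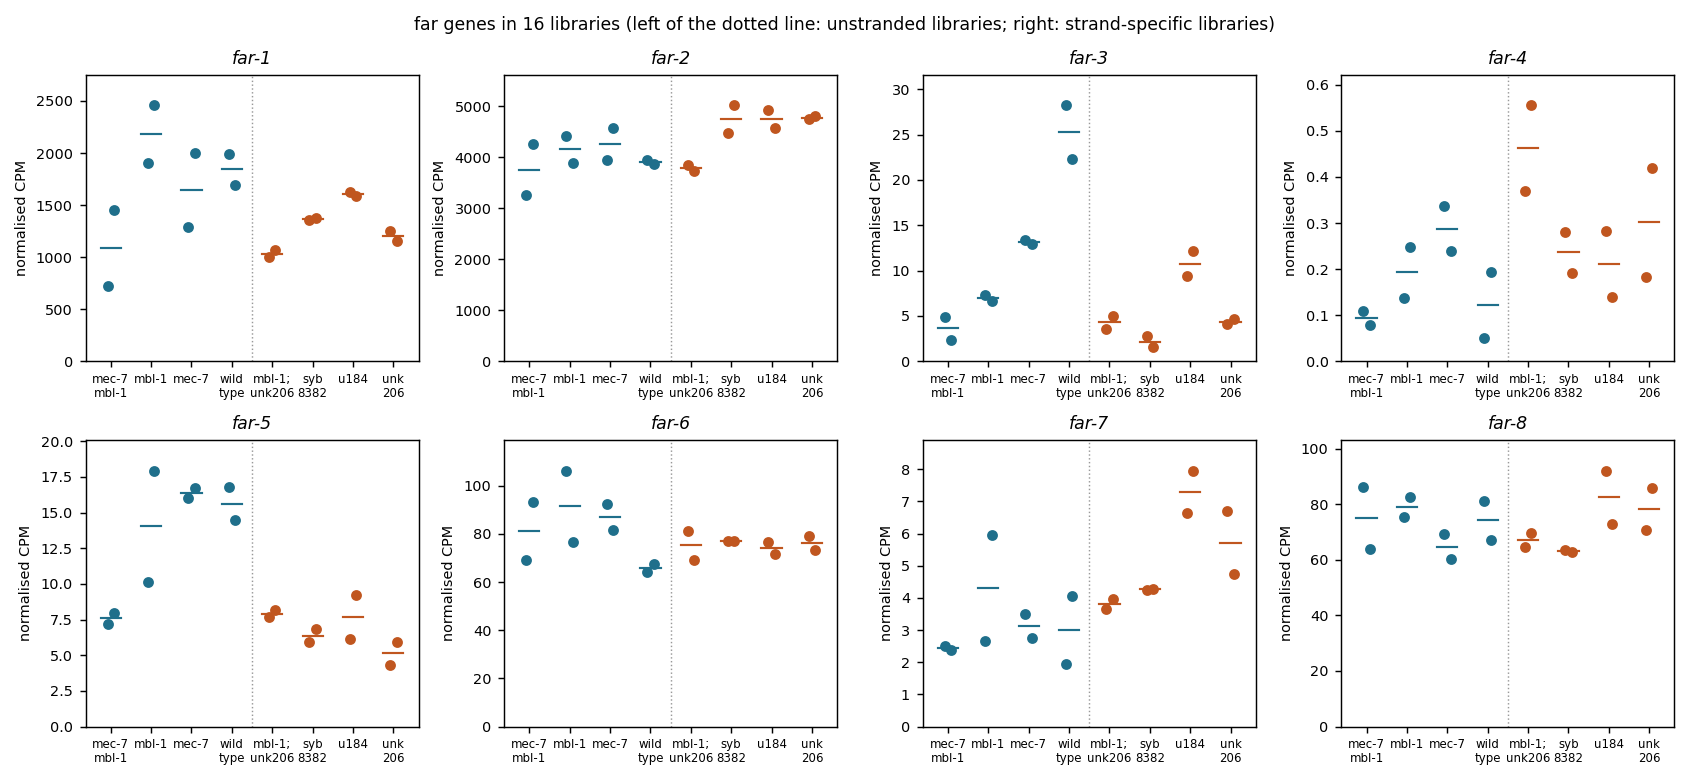
Normalised CPM (y axis, from 0) of each *far* gene in the 2 libraries of each strain (points), with the strain mean as a bar. Blue points left of the dotted line are unstranded libraries and orange points right of it are strand-specific libraries; *far-3* had its highest values, 28.2 and 22.3 CPM, in the wild type, while *far-2* stayed between 3250 and 5020 CPM.

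In the unstranded libraries, *far-3* had a different level in each strain. The 2 libraries gave 4.93 and 2.38 CPM in *mec-7(u278) mbl-1(tm1563)*, 7.36 and 6.66 CPM in *mbl-1(tm1563)*, 13.4 and 12.9 CPM in the single mutant *mec-7(u278)*, and 28.2 and 22.3 CPM in the wild type. None of these strains overlapped with another. In the strand-specific libraries, *far-3* had 2.81 and 1.54 CPM in *mec-3(syb8382)*, 3.52 and 5.04 CPM in *mbl-1(tm1563); mec-3(unk206)*, 4.05 and 4.67 CPM in *mec-3(unk206)*, and 9.41 and 12.1 CPM in *mec-3(u184)*. Here only *mbl-1(tm1563); mec-3(unk206)* and *mec-3(unk206)* overlapped. These values are a description, since *far-3* was chosen for its pattern.

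The levels of *far-5* had another order. In the unstranded libraries *far-5* had 7.18 and 7.98 CPM in *mec-7(u278) mbl-1(tm1563)*, below the remaining 3 strains. It had 10.1 and 17.9 CPM in *mbl-1(tm1563)*, 16 and 16.7 CPM in the single mutant *mec-7(u278)*, and 16.8 and 14.5 CPM in the wild type, and these 3 strains overlapped. The ratio of *far-3* to *far-5* counts was 0.69 and 0.30 in *mec-7(u278) mbl-1(tm1563)*, 0.73 and 0.37 in *mbl-1(tm1563)*, 0.84 and 0.77 in the single mutant *mec-7(u278)*, and 1.68 and 1.54 in the wild type. Only in the wild type among these strains did *far-3* have more counts than *far-5*. Among the strand-specific libraries the same held for *mec-3(u184)* alone, with ratios of 1.54 and 1.31.

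The loss of *mbl-1* went with lower *far-3* in the wild-type background. *far-3* had 7.36 and 6.66 CPM in *mbl-1(tm1563)*, against 28.2 and 22.3 CPM in the wild type, a difference of -1.84 on the log2 scale (SE 0.26) or 3.59-fold. This value lay between -2.01 and -1.67 when any 1 of the 4 libraries was left out. *far-5* had 10.1 and 17.9 CPM against 16.8 and 14.5 CPM (-0.14, SE 0.39), and the strains overlapped. Neither gene was tested here. The vitellogenin sums were 13706 and 396 CPM in *mbl-1(tm1563)*, against 5432 and 16110 CPM in the wild type, and overlapped. The hypodermal marker sums, 2023 and 2895 CPM in *mbl-1(tm1563)* against 3508 and 1891 CPM in the wild type, overlapped, as did the intestinal sums of 20576 and 27364 CPM against 24828 and 27470 CPM. The part of timing and tissue make-up in the *far-3* value was not tested.

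Among the other members, *far-6* was the only one whose libraries did not overlap in this comparison. It had 106 and 76.6 CPM in *mbl-1(tm1563)*, against 64.3 and 67.4 CPM in the wild type (0.48 on the log2 scale, SE 0.20), which did not pass the test (edgeR adjusted p = 1.0). Both directions together, 21% of the genes tested had libraries that did not overlap. The 2 abundant members differed little: *far-1* had 1907 and 2459 CPM against 1988 and 1697 CPM (0.26, SE 0.29), and *far-2* had 4421 and 3886 CPM against 3947 and 3863 CPM (0.10, SE 0.26). *far-7* had 2.67 and 5.97 CPM against 1.95 and 4.06 CPM, and *far-8* had 75.3 and 82.4 CPM against 81.1 and 67.2 CPM. edgeR called 0.0% of 14493 genes at an adjusted p under 0.05 and 1.11% at an unadjusted p under 0.05, so the absence of calls among the *far* genes is not particular to them. The DESeq2 test called 20 genes.

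In the *mec-7(u278)* background both convergent genes were lower without *mbl-1*. *far-3* had 4.93 and 2.38 CPM in *mec-7(u278) mbl-1(tm1563)*, against 13.4 and 12.9 CPM in *mec-7(u278)* (-1.86, SE 0.55, a 3.64-fold difference). *far-5* had 7.18 and 7.98 CPM against 16 and 16.7 CPM (-1.12, SE 0.40). Neither pair of strains overlapped. Without single libraries the *far-3* value lay between -2.46 and -1.42 and the *far-5* value between -1.2 and -1.03, and both genes are again described without a test. In the same libraries the vitellogenin sums were 34400 and 21096 CPM in *mec-7(u278) mbl-1(tm1563)*, against 17687 and 11821 CPM in *mec-7(u278)*, those of the major sperm protein genes, which are sperm genes, were 5946 and 3563 CPM against 3120 and 947 CPM, and the neuronal marker sums were 220 and 290 CPM against 303 and 418 CPM. The part of these shifts in the *far* values was not tested.

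*far-7* also did not overlap, with 2.50 and 2.38 CPM in *mec-7(u278) mbl-1(tm1563)* against 3.49 and 2.77 CPM in *mec-7(u278)* (-0.37, SE 0.53), and 45.8% of all genes tested did not overlap either. *far-1* had 719 and 1457 CPM against 1293 and 1996 CPM (-0.60, SE 0.54, edgeR adjusted p = 0.67). *far-2* had 3250 and 4269 CPM against 3946 and 4579 CPM (-0.19, SE 0.50). edgeR called 0.0% of 15221 genes here, and 3.68% had an unadjusted p under 0.05. The DESeq2 test called 16. The median over the 7 *far* genes in the fit was -0.37, beside -0.05 over all genes. This median includes *far-3* and *far-5*, by whose levels the family was chosen, and is a description only.

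The log2 effect of *mbl-1(tm1563)* on *far-3* differed by 0.004 (SE 0.69) between the *mec-7(u278)* and the wild-type background. The corresponding difference for *far-5* was -0.95 (SE 0.49), and neither was tested. None of the other *far* genes was called in this interaction fit, in which 0.0% of 15602 genes passed and 1.67% had an unadjusted p under 0.05. DESeq2 called 4 genes.

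Both *mec-7(u278)* libraries had less *far-3*, with 13.4 and 12.9 CPM, against 28.2 and 22.3 CPM in the wild type (-0.95, SE 0.31), and the difference was not tested. The wild-type libraries are the same as in the *mbl-1(tm1563)* comparison, so the 2 differences share their reference values. *far-6* had 92.4 and 81.5 CPM against 64.3 and 67.4 CPM (0.40, SE 0.26, edgeR adjusted p = 0.573). These were the 2 of 7 *far* genes in the fit whose libraries did not overlap, and 46.5% of 14710 genes did not overlap. edgeR called 0.0204% of the genes tested and none of the *far* genes, and for 7.05% of them the unadjusted p was under 0.05. The median of the *far* genes, *far-3* and *far-5* included, was 0.06, beside 0.004 for all genes. The *mec-7(u278)* libraries had hypodermal marker sums of 655 and 1551 CPM, against 3508 and 1891 CPM in the wild type, and the intestinal sums were 8272 and 19884 CPM against 24828 and 27470 CPM, both lower without overlap, as *far-3* was. The major sperm protein sums were higher, at 3120 and 947 CPM against 220 and 900 CPM, and the vitellogenin sums overlapped. The part of these shifts in the *far* values was not tested.

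When *mec-7(u278) mbl-1(tm1563)* was set against *mbl-1(tm1563)*, 4 of 7 *far* genes had lower libraries without overlap. They were *far-1*, *far-7*, and *far-3* and *far-5*, by whose levels the family was chosen. Such separation in either direction was found for 76.4% of 15086 genes. Their log2 differences were -0.96 (SE 0.47) for *far-1*, -0.90 (SE 0.58) for *far-3*, -0.84 (SE 0.44) for *far-5* and -0.77 (SE 0.61) for *far-7*. *far-1* and *far-7* did not pass edgeR's test (adjusted p = 0.316 and 0.43), which called 0.0% of genes and gave 15.2% an unadjusted p under 0.05. DESeq2 called 298 genes. *far-2*, *far-6* and *far-8* overlapped, with differences of -0.11 (SE 0.38), -0.14 (SE 0.32) and -0.03 (SE 0.25). Timing and tissue markers separated in the same libraries. The vitellogenin sums were 34400 and 21096 CPM in *mec-7(u278) mbl-1(tm1563)*, against 13706 and 396 CPM in *mbl-1(tm1563)*, and the major sperm protein sums were 5946 and 3563 CPM against 1432 and 14 CPM. The hypodermal sums were 165 and 991 CPM against 2023 and 2895 CPM, and the intestinal sums 4263 and 10236 CPM against 20576 and 27364 CPM, both in the direction of the 4 *far* genes. Their part in these differences was not tested.

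*far-1*, the second most abundant member, moved with the timing genes in the unstranded libraries. In each of the 4 strains, the library with more vitellogenin RNA had less *far-1*. *far-1* was 719 CPM in the double-mutant *mec-7(u278) mbl-1(tm1563)* library with 34400 CPM of vitellogenins, and 1457 CPM in the one with 21096 CPM. It was 1907 CPM in the *mbl-1(tm1563)* library with 13706 CPM of vitellogenins, and 2459 CPM in the one with 396 CPM. The *mec-7(u278)* and wild-type pairs had the same direction. In the 4 strand-specific strains, whose libraries differed in vitellogenins by between 1.03 and 1.2 times, the direction was the opposite in each, with folds of *far-1* of at most 1.09. By the major sperm protein sums, *far-1* was lower in the library with more in 4 of 4 unstranded and 3 of 4 strand-specific strains. *far-5* was likewise lower in the library with more vitellogenins in 4 of 4 unstranded strains, *far-2* in 3 of 4 and *far-3* in 1 of 4. These are 2 libraries per strain and a description only.

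**Figure D3:**
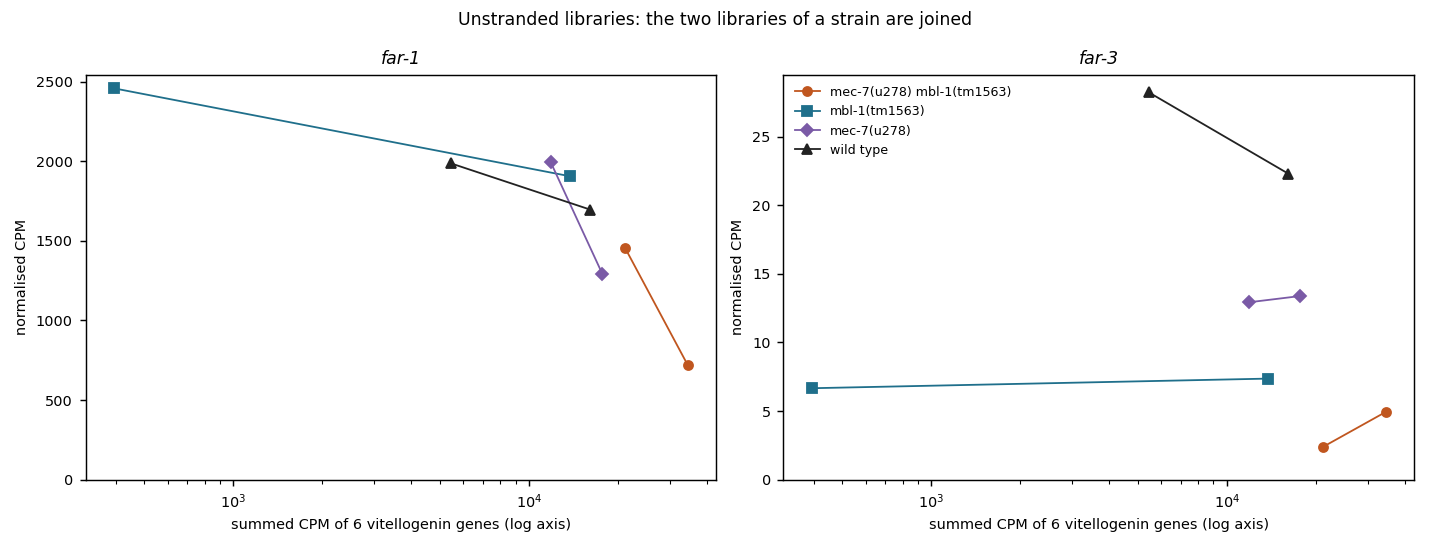
Normalised CPM (y axis, from 0) of *far-1* and *far-3* against the summed CPM of 6 vitellogenin genes (x axis, log scale) in the 8 unstranded libraries, with the 2 libraries of each strain joined. The *far-1* line falls in each strain, and *far-3* was 7.36 and 6.66 CPM in the *mbl-1(tm1563)* libraries with 13706 and 396 CPM of vitellogenins.

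In the *mec-3(unk206)* background *far-3* had similar levels with and without *mbl-1*. It had 3.52 and 5.04 CPM in *mbl-1(tm1563); mec-3(unk206)*, against 4.05 and 4.67 CPM in *mec-3(unk206)* (-0.03, SE 0.24), and the strains overlapped. With libraries left out in turn the value lay between -0.31 and 0.21. *far-5* had 7.70 and 8.14 CPM against 4.33 and 5.93 CPM (0.62, SE 0.21, a 1.54-fold difference), and 0.40 without the first *mec-3(unk206)* library. Neither gene was tested here. None of the other 6 *far* genes passed, in a comparison in which edgeR called 36.0% of 15097 genes.

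Most other members had lower values in *mbl-1(tm1563); mec-3(unk206)* without passing the test. *far-2* had 3851 and 3723 CPM against 4741 and 4803 CPM in *mec-3(unk206)* (-0.33, SE 0.13, edgeR adjusted p = 0.0623). *far-7* had 3.64 and 3.97 CPM against 6.70 and 4.75 CPM (-0.58, SE 0.23, adjusted p = 0.0564). *far-1* had 997 and 1068 CPM against 1254 and 1154 CPM (-0.22, SE 0.14, adjusted p = 0.228), and *far-8* differed by -0.22 (SE 0.15). *far-2* and *far-7* passed in 1 edgeR fit of all 8 strand-specific libraries (adjusted p = 0.0315 and 0.0398). With libraries left out in turn, *far-2* lay between -0.36 and -0.31 and *far-7* between -0.81 and -0.34. *far-1*, *far-2*, *far-7*, *far-8* and *far-5* had libraries without overlap, as did 69.3% of the genes tested. *far-6* differed by -0.02 (SE 0.14). *far-4* passed the filter on low counts in this comparison alone, with 0.368 and 0.556 CPM against 0.182 and 0.420 CPM (0.59, SE 0.54, adjusted p = 0.406). All 6 vitellogenin genes fell, where 21.9% of all genes fell. Their sums were 19829 and 20360 CPM in *mbl-1(tm1563); mec-3(unk206)* against 43061 and 35898 CPM in *mec-3(unk206)*. The intestinal marker sums were also lower, at 7301 and 6086 CPM against 16998 and 11546 CPM. The hypodermal sums were higher, at 338 and 377 CPM against 282 and 217 CPM. So were the germline sums, at 1805 and 1914 CPM against 1693 and 1485 CPM. The part of these shifts in the *far* values was not tested.

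The effect of *mbl-1(tm1563)* on *far-3* was 1.83 log2 units higher (SE 0.38) in the *mec-3(unk206)* than in the wild-type background, counted without regard to strand. This difference was not tested, since it contains the wild-type comparison that was known when *far-3* was chosen. edgeR's interaction fit called 0.0192% of 15661 genes and none of the other *far* genes, and gave 9.14% an unadjusted p under 0.05. The background cannot be told apart from the kind of library.

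The comparisons among *mec-3* alleles do not involve *mbl-1*, and *far-3* was the member that differed most in each of them. *far-3* and *far-5* are described without a test in these comparisons too, since *far-3* was chosen for its pattern. *far-3* had 9.41 and 12.1 CPM in *mec-3(u184)*, against 4.05 and 4.67 CPM in *mec-3(unk206)* (1.33, SE 0.19, a 2.52-fold difference). The value lay between 1.13 and 1.49 with libraries left out in turn. *far-1* also rose, to 1626 and 1591 CPM in *mec-3(u184)*, against 1254 and 1154 CPM in *mec-3(unk206)* (0.45, SE 0.10, edgeR adjusted p = 0.0102). The *far-1* call was lost without the first *mec-3(u184)* library (adjusted p = 0.079), without the second (0.063) and without the second *mec-3(unk206)* library (0.0503). Of the *far* genes tested here only *far-1* was called, in a comparison in which edgeR called 26.6% of 15040 genes, and 14.6% as higher. *far-5* had 6.12 and 9.22 CPM against 4.33 and 5.93 CPM (0.61, SE 0.24, and 0.86 without the first *mec-3(u184)* library), and *far-7* differed by 0.39 (SE 0.20). *far-2*, *far-6* and *far-8* differed by 0.03 (SE 0.10), -0.01 (SE 0.10) and 0.11 (SE 0.14).

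The short *mec-3* product alone went with less *far-3*. *far-3* had 2.81 and 1.54 CPM in *mec-3(syb8382)*, against 4.05 and 4.67 CPM in *mec-3(unk206)* (-1.0, SE 0.29), and this was not tested. None of the other *far* genes tested was called, where edgeR called 13.5% of 14848 genes, and 8.17% as lower. The *far-3* value rests on few counts, 60 and 32 fragments in *mec-3(syb8382)* against 89 and 111 in *mec-3(unk206)*. It was -0.62 without the second *mec-3(syb8382)* library, and lay between -1.48 and -0.62 with libraries left out in turn. *far-8* had 63.4 and 63.0 CPM against 70.8 and 85.6 CPM (-0.31, SE 0.12, adjusted p = 0.119). *far-7* differed by -0.42 (SE 0.23), *far-5* by 0.31 (SE 0.22), *far-1* by 0.18 (SE 0.13), *far-2* by -0.01 (SE 0.15) and *far-6* by 0.02 (SE 0.11).

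The largest difference of *far-3* among the strand-specific strains was between *mec-3(syb8382)* and *mec-3(u184)*. It had 2.81 and 1.54 CPM in *mec-3(syb8382)*, against 9.41 and 12.1 CPM in *mec-3(u184)* (-2.33, SE 0.28, a 5.01-fold difference). The value lay between -2.80 and -1.93 with libraries left out in turn. This difference was not tested, since *far-3* was chosen for its pattern. Both strains carry the same reporter insertion, *uIs134* on chromosome V, which is the chromosome of *far-3*. In the comparisons of either strain with *mec-3(unk206)*, by contrast, the insertion and the allele cannot be told apart.

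In the comparison of *mec-3(syb8382)* with *mec-3(u184)*, edgeR called 46.0% of 14897 genes, and 22.7% as lower. The *far* genes called, with *far-3* and *far-5* left out, were *far-7*, *far-8* and *far-1*, all lower. *far-7* had 4.26 and 4.27 CPM in *mec-3(syb8382)* against 6.64 and 7.96 CPM in *mec-3(u184)* (-0.80, SE 0.17, edgeR adjusted p = 0.0097). *far-8* had 63.4 and 63.0 CPM against 92.1 and 73.0 CPM (-0.41, SE 0.11, adjusted p = 0.0229). *far-1* had 1352 and 1377 CPM against 1626 and 1591 CPM (-0.26, SE 0.07, adjusted p = 0.0226). The *far-1* call was already lost in 1 edgeR fit of all 8 strand-specific libraries (adjusted p = 0.0928). The fits with a library left out are also joint fits, and their values lay between -0.25 and -0.22. The *far-7* call was lost without the second *mec-3(u184)* library (adjusted p = 0.0996) or the second *mec-3(syb8382)* library (0.054). The *far-8* call was lost without the first *mec-3(u184)* library (-0.20, adjusted p = 0.381), without the first *mec-3(syb8382)* library (0.126), without the second (0.149) and without a filter on low counts (0.0754). *far-2* and *far-6* were close to 0, at -0.03 (SE 0.09) and 0.03 (SE 0.06), and *far-5* differed by -0.29 (SE 0.22).

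Other transcripts shifted between the same strains. Of the 6 vitellogenin genes, 4 rose in *mec-3(u184)* and 4 in *mec-3(syb8382)* against *mec-3(unk206)*, where 26.6% and 13.5% of all genes were called. No vitellogenin gene was called between *mec-3(syb8382)* and *mec-3(u184)*, with sums of 48156 and 57751 CPM against 53326 and 45060 CPM. In that comparison 23 of 29 major sperm protein genes tested rose, where 46.0% of all genes were called in either direction. The sums over the list were 6515 and 6266 CPM against 4480 and 4547 CPM. The 5 hypodermal markers summed to 288 and 221 CPM in *mec-3(syb8382)*, against 659 and 572 CPM in *mec-3(u184)*, and to 282 and 217 CPM in *mec-3(unk206)*. They moved with *far-3* in both comparisons that involve *mec-3(u184)*, and overlapped between *mec-3(syb8382)* and *mec-3(unk206)*. The intestinal markers summed to 11276 and 11232 CPM in *mec-3(syb8382)*, 15955 and 16312 CPM in *mec-3(u184)*, and 16998 and 11546 CPM in *mec-3(unk206)*. They were lower in *mec-3(syb8382)* than in either other strain, as *far-3* was, and overlapped between *mec-3(u184)* and *mec-3(unk206)*. The 4 germline markers summed to 1925 and 2002 CPM in *mec-3(syb8382)*, 1320 and 1247 CPM in *mec-3(u184)*, and 1693 and 1485 CPM in *mec-3(unk206)*. The part of timing and tissue make-up in the *far* values was not tested.

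**Figure D4:**
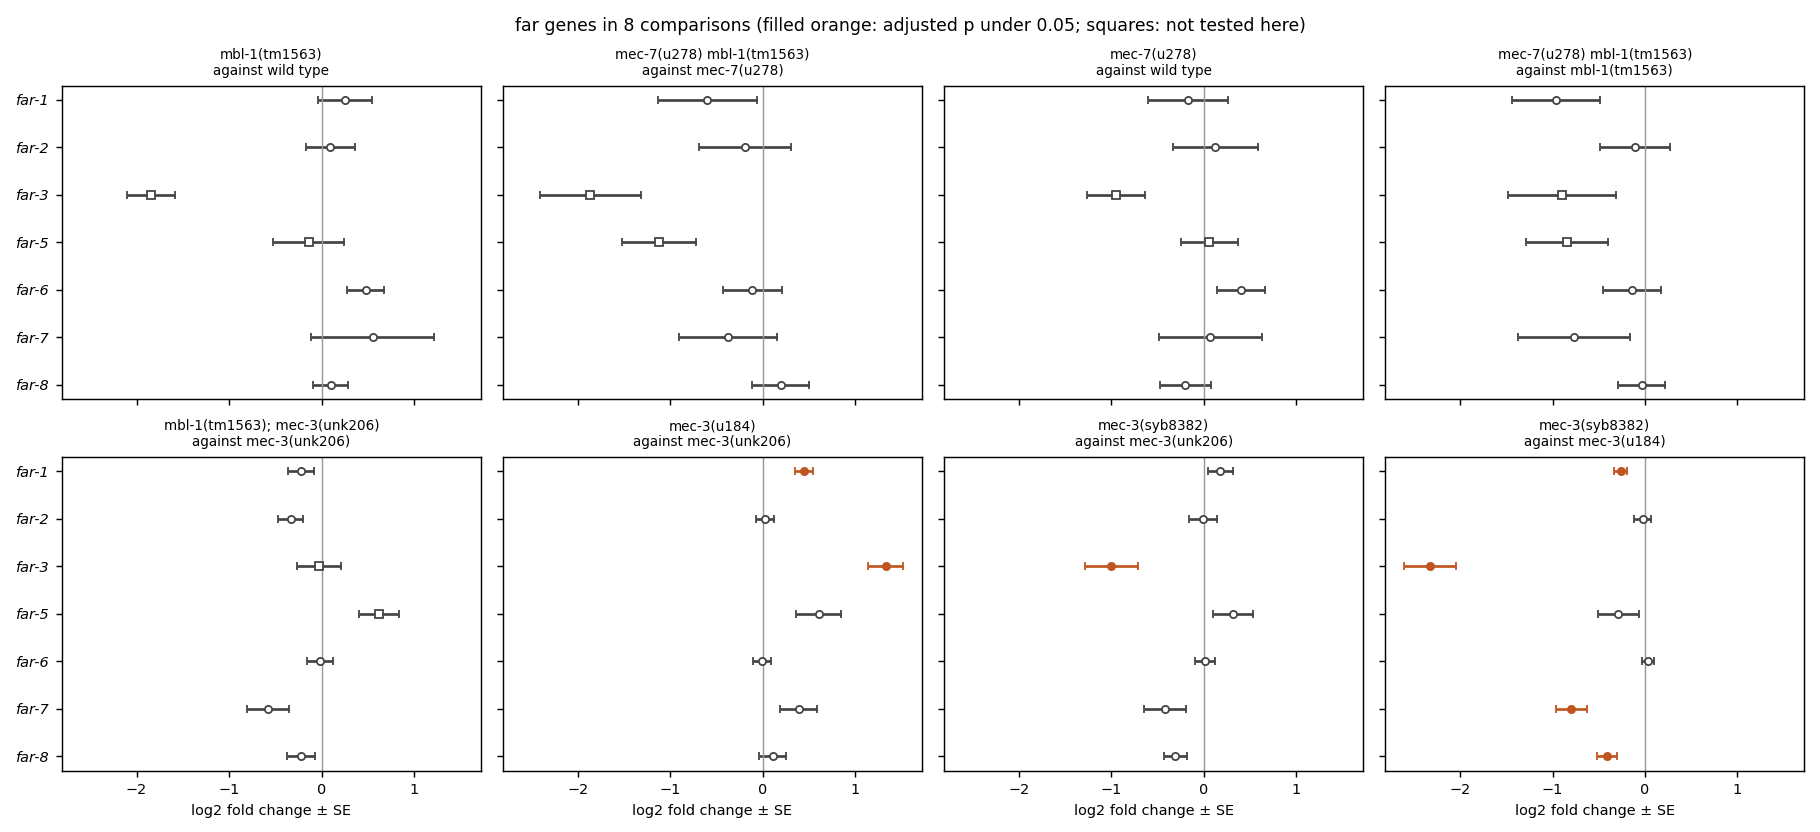
Log2 fold change (x axis) of 7 *far* genes (y axis) in the 8 comparisons, as point and SE from fits of 4 libraries each; the first strain of each panel title is on top of the fold. Filled orange points had an adjusted p under 0.05, and open squares were not tested. In the comparisons among *mec-3* alleles, *far-3* and *far-5* are drawn as circles, filled for *far-3*, but were likewise not tested. *far-3* spans -2.33 to 1.33 and *far-2* stays within -0.33 and 0.12.

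The strand-specific libraries allowed the *far-3* and *far-5* counts to be checked against their overlap. Each table gives a count without regard to strand and one for each strand, and the count on the sense strand of the gene was used for these libraries. In *mec-3(u184)* *far-3* had 200 and 260 sense fragments and 186 and 244 fragments without regard to strand. In *mec-3(syb8382)* it had 60 and 32 sense fragments, against 57 and 29 without regard to strand. In *mec-3(unk206)* the pairs were 89 and 111 against 87 and 103, and in *mbl-1(tm1563); mec-3(unk206)* 86 and 127 against 84 and 120. The sense count was thus 1.02 to 1.10 times the count without regard to strand for *far-3*, and 1.0 to 1.02 times for *far-5*.

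The difference between the columns came from the shared bases. The sum of both strand counts exceeded the count without regard to strand by the same number of fragments for *far-3* and for *far-5*, in 8 of 8 strand-specific and 8 of 8 unstranded libraries. These fragments, which are ambiguous when strand is disregarded, numbered 2 to 20 per strand-specific library and 8 to 27 per unstranded library. They came to between 2.30% and 13.8% of the *far-3* count in the strand-specific libraries and to between 4.24% and 13.3% in the unstranded libraries. The ambiguous fragments are left out of both genes and do not pass from one to the other.

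The antisense counts can hold fragments of the neighbour in the shared bases, and also fragments counted on the wrong strand. They do not enter the sense counts used here. *far-1*, which shares no bases, had 521 antisense beside 27469 sense fragments in the second *mec-3(unk206)* library. The antisense strand of *far-3* had 0 to 5 fragments per strand-specific library, at most 3.33% of its sense count. The antisense strand of *far-5* had 2 to 17 fragments, between 1.06% and 12.3% of its sense count. The highest values, 16 and 17 fragments, were in *mec-3(u184)*, where *far-3* had its most counts. Counted without regard to strand, *far-3* was also lower in *mec-3(syb8382)* than in *mec-3(u184)*. The values were 2.68 and 1.41 CPM against 8.85 and 11.5 CPM. In the unstranded libraries both strand columns of each gene held many fragments, and the most unequal pair was 21 and 47 fragments of *far-3* in the second *mec-7(u278) mbl-1(tm1563)* library. The strand columns of these libraries were not used to separate the 2 genes.

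**Figure D5:**
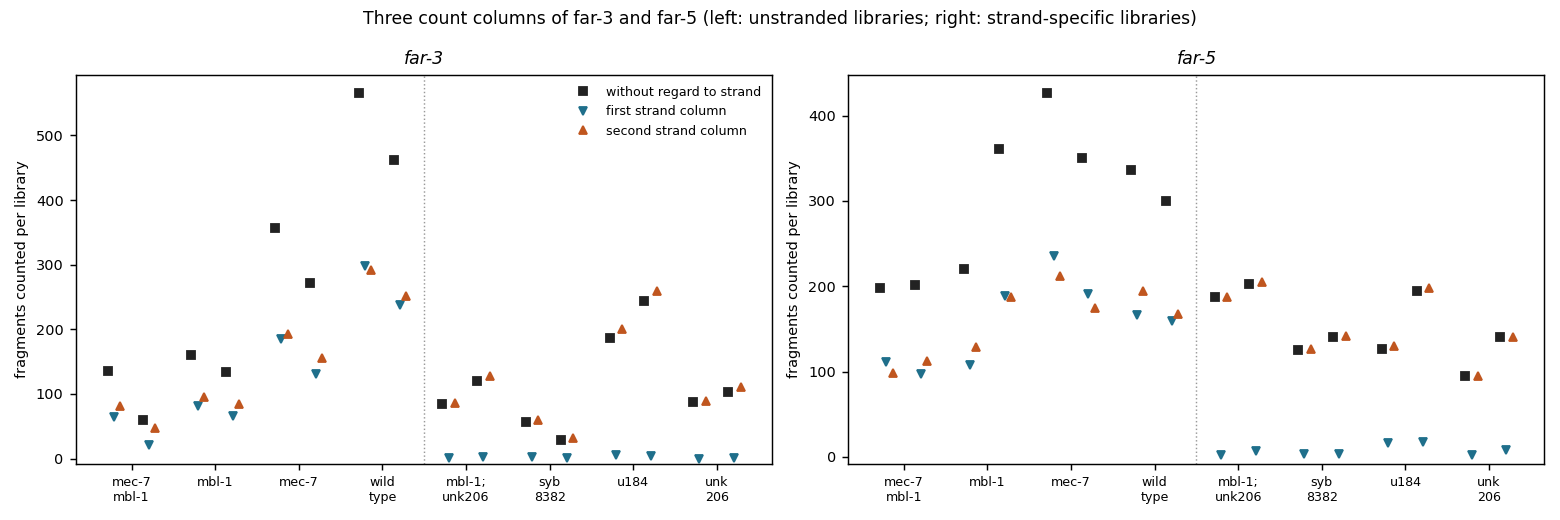
Fragments per library (y axis) counted for *far-3* and *far-5* without regard to strand (squares) and on each strand (triangles), by strain. Right of the dotted line, in the strand-specific libraries, the first strand column holds 0 to 5 fragments of *far-3* and 2 to 17 of *far-5*, and the second lies close to the count without regard to strand.

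Genes with a pattern like that of *far-3* were ranked by the root mean square difference of centred log2(CPM + 1) values over 8 libraries of 1 kind, among genes with a mean of at least 5 CPM. In the unstranded libraries the nearest of 10204 genes were *ubh-1*, a ubiquitin C-terminal hydrolase, at 0.36, *mtpn-1* at 0.45 and Y55B1BL.1 at 0.48 log2 units, where the SD of *far-3* itself was 0.97. *ubh-1* ranged from 5.87 to 33.0 CPM. *far-5* was at rank 149, the nearest member of the family. In the strand-specific libraries the nearest of 10398 genes were H10E21.4 at 0.21, T26C5.2 at 0.22 and C30H6.5 at 0.23, with an SD of *far-3* of 0.71. *far-7* was the nearest member there, at rank 710, and *far-5* was at rank 2739. For *far-2*, the divergent neighbour *far-1* was at rank 4788 in the unstranded and at rank 1293 in the strand-specific libraries. These likenesses rest on 4 strains of each kind and are descriptions.

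Other genes of fatty acid handling were followed as lists. No gene of the lists below was called in the 4 comparisons of unstranded libraries, in which at most 0.0204% of all genes were called. The intracellular lipid binding proteins (*lbp* genes) bind fatty acids, and are unrelated in fold to FAR proteins. In *mbl-1(tm1563); mec-3(unk206)*, 2 of 9 rose and 2 fell, with a median of -0.23 beside -0.01 over all genes, of which 14.2% rose and 21.9% fell. *lbp-7* had 41.9 and 36.5 CPM against 73.7 and 80.6 CPM in *mec-3(unk206)* (-0.98, edgeR adjusted p = 0.000117), and *lbp-4* had 46.3 and 38.1 CPM against 25.5 and 27.5 CPM (0.67, adjusted p = 0.00345). Between *mec-3(syb8382)* and *mec-3(u184)*, 1 of 9 rose and 4 fell, where 46.0% of all genes were called and 22.7% fell. *lbp-5* had 64.5 and 50.2 CPM against 97.4 and 90.1 CPM (-0.73, adjusted p = 0.00389). Against *mec-3(unk206)*, 1 of 9 fell in *mec-3(u184)* and 3 fell in *mec-3(syb8382)*, where 26.6% and 13.5% of all genes were called, with *lbp-1* at -0.99 and -0.83 on the log2 scale in comparisons that share the *mec-3(unk206)* libraries.

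The enzymes that make and activate fatty acids fell more often than they rose in *mbl-1(tm1563); mec-3(unk206)*. Of 16 desaturases and elongases, 7 fell and 1 rose, and of 21 acyl-CoA synthetases tested, 12 fell and 3 rose, where 21.9% of all genes fell and 14.2% rose. The elongase *elo-7* had 6.02 and 6.11 CPM against 17.4 and 20.2 CPM (-1.63, adjusted p = 1.39e-05). The synthetase *acs-22* had 61.0 and 63.9 CPM against 151 and 119 CPM (-1.11, adjusted p = 5.91e-05). Of 6 regulators, 3 fell, among them *sbp-1*, the sterol regulatory element binding protein homologue, with 28.9 and 32.9 CPM against 61.0 and 50.2 CPM (-0.85, adjusted p = 0.000614). Of 6 acyl-CoA binding proteins, 1 rose and 1 fell. The intestinal marker sums, 7301 and 6086 CPM against 16998 and 11546 CPM, moved in the same direction as these lists. The hypodermal and germline sums were higher. The part of these shifts in the lists was not tested.

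Among the *mec-3* alleles a desaturase and a synthetase had large differences. The palmitoyl-CoA desaturase *fat-5* had 39.8 and 41.5 CPM in *mec-3(u184)*, against 16.2 and 9.54 CPM in *mec-3(unk206)* (1.7, adjusted p = 0.000629). It had 9.03 and 15.6 CPM in *mec-3(syb8382)*, against 39.8 and 41.5 CPM in *mec-3(u184)* (-1.75, adjusted p = 0.00187). *acs-10* had 6.64 and 9.03 CPM in *mec-3(u184)* and 8.70 and 6.44 CPM in *mec-3(syb8382)*, against 42.3 and 46.3 CPM in *mec-3(unk206)* (adjusted p = 5.8e-05 and 4.37e-05). Both comparisons share the *mec-3(unk206)* libraries and the reporter insertion differs in both. Over the desaturases and elongases, 4 rose and 2 fell of 16 in *mec-3(u184)* against *mec-3(unk206)*, 1 rose in *mec-3(syb8382)* against *mec-3(unk206)*, and 1 rose and 4 fell in *mec-3(syb8382)* against *mec-3(u184)*. Over all genes, 26.6%, 13.5% and 46.0% were called in these comparisons.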

How the data were processed

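The authors aligned the paired reads (DNBSEQ) to WBcel235 with STAR 2.7.10, named with the build in the submitters' processing notes, and deposited for each library the whole-number counts of fragments per gene that STAR gives, not normalised: without regard to strand, and for each strand. The rows that name no gene entered neither library sizes nor tests. They were unmapped (1.09% to 2.86%), multiply mapped (2.47% to 4.24%), outside genes (0.23% to 0.505%) and ambiguous (1.53% to 1.91%). The labels call all libraries strand-specific, but the second strand held 50.8% to 51.3% of counts in 4 strains and 97.7% to 98.4% in the *mec-3* strains. The count without regard to strand was used for the first, and the second-strand (sense) count for the second.

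Counts were tested with edgeR 4.0.16 in R 4.3.3: TMM, filterByExpr, the quasi-likelihood test over the 4 libraries of each comparison and Benjamini-Hochberg adjustment over all genes tested, with a threshold of 0.05. Interaction fits used 8 libraries and the count without regard to strand. An exact permutation test of 2 against 2 libraries cannot go below p = 0.33 and was not used for single genes. The scripts were tested on simulated data. Printed CPM values were scaled by TMM within each kind of library, and *far-4* entered a test only where it passed the filter. Library pairs of a strain differed by far more than sampling noise (chi-square per degree of freedom between 7.51 and 244), and no pair was merged. That the pairs are biological replicates comes from the study's methods.

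Alternatives were RLE size factors, DESeq2 1.42.0, the other count column, no filter or a minimum of 10 counts per library, a joint fit of 8 libraries, a block for the replicate number, and leaving out single libraries. Fits with a library left out joined all remaining libraries of the same kind, unlike the main fits of 4 libraries. The 1 remaining library of the strain was assumed to vary like the others. A call that changed in them can reflect the joint fit as well as the left-out library. The members, lists and tests were chosen with earlier results of these data known. The text names all 8 *far* genes, the genes most like *far-3* and *far-2*, and examples of the 2 genes per list and comparison with the largest called change.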

Additional observations from a re-analysis of the deposited data

Results flagged for a closer look

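The *mbl-1(tm1563)* effect on *far-5* had opposite signs in 2 backgrounds. Both *mbl-1(tm1563); mec-3(unk206)* libraries were above both *mec-3(unk206)* libraries, and both *mec-7(u278) mbl-1(tm1563)* libraries were below both *mec-7(u278)* libraries. The difference of the effects was 1.73 log2 units (SE 0.41) in an interaction fit of the 8 libraries that was added after the data were seen. This difference was not tested, since *far-5* was chosen with *far-3*. Over all 15715 genes the fit called 0.0% with edgeR and gave 9.14% an unadjusted p under 0.05, and DESeq2 called 95 genes. The background cannot be told apart from the kind of library.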

How the results depend on the processing

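Of 510 log2 values of *far* genes under alternatives other than a left-out library, 484 kept direction and side of the threshold. The cause of the shifts listed here was not tested. These values include *far-3* and *far-5*. Counts of *far* genes called leave out both where the report gives them without a test. The exceptions are the DESeq2 counts and the count from 1 fit of 8 libraries, both given below. The levels of both genes were known when they were chosen. A call of either gene in the excepted counts, or its absence, is therefore no test result, and no conclusion is drawn from it. With DESeq2, 1 *far* gene was called in *mbl-1(tm1563)* against the wild type (*far-3*, by whose level the family was chosen), 0 in *mbl-1(tm1563); mec-3(unk206)* and 0 in *mec-3(syb8382)* against *mec-3(unk206)*, and 1 in each interaction with the *mec-3(unk206)* background; genes called overall were 20 and 16 for the *mbl-1(tm1563)* effect without and with *mec-7(u278)*, 92 in *mec-7(u278)* against the wild type, 298 in *mec-7(u278) mbl-1(tm1563)* against *mbl-1(tm1563)*, and 4, 536 and 95 in the interactions *mec-7(u278)* minus wild type, *mec-3(unk206)* minus wild type and *mec-3(unk206)* minus *mec-7(u278)*. Without a filter, 485 genes were called in *mec-7(u278)* against the wild type and 1 in the added interaction. With at least 10 counts, or the other column, *mec-7(u278)* against the wild type had 0 calls. In 1 fit of 8 libraries, 3 *far* genes were called in *mbl-1(tm1563); mec-3(unk206)*. They were *far-2*, *far-7* and *far-5*, and the *far-5* call is no test result, since *far-5* was chosen with *far-3*. Such a fit of the unstranded libraries called 2 genes among all tested in *mec-7(u278) mbl-1(tm1563)* against *mbl-1(tm1563)*.

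Equal library numbers come only from the deposited tables' names, and their deviations correlated between -0.56 and 0.51, so the samples share only a number. With the replicate number as a block, *far-2* was called in *mbl-1(tm1563); mec-3(unk206)*. Over all genes, 3031 were called in *mec-3(syb8382)* against *mec-3(unk206)*, and 0 in the interaction with the wild-type background. The value of *far-3* in the *mec-7(u278)* interaction was -0.072. The block lost *far-1* in *mec-3(syb8382)* against *mec-3(u184)* (edgeR adjusted p = 0.0791).

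Values near 0 turned sign. In *mec-7(u278) mbl-1(tm1563)* against *mbl-1(tm1563)*, *far-8* was 0.024 with RLE factors and 0.024 with DESeq2, and with at least 10 counts *far-8* was 0.11 and *far-2* 0.027. With RLE factors and with DESeq2, *far-3* was 0.0021 and 0.0023 and *far-6* 0.0105 and 0.0105 in *mbl-1(tm1563); mec-3(unk206)*, and *far-2* was 0.0029 and 0.0029 in *mec-3(syb8382)* against *mec-3(unk206)*. In 1 fit of 8 libraries *far-2* was -0.0062 in *mec-3(u184)* against *mec-3(unk206)*. Without a filter, *far-4* in the interaction with the wild-type background was 0.032.

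With each library left out in turn, the fits joined the remaining libraries of 1 kind, so they also differed from the main fits of 4 libraries. Listed first are *mbl-1(tm1563); mec-3(unk206)*, *mec-3(u184)* and *mec-3(syb8382)* against *mec-3(unk206)*, and *mec-3(syb8382)* against *mec-3(u184)*. All genes called ranged from 5034 to 5138, 1680 to 3142, 881 to 2174 and 2912 to 4380 in these comparisons, from 0 to 1 in *mec-7(u278)* against the wild type, and from 0 to 2092 in *mec-7(u278) mbl-1(tm1563)* against *mbl-1(tm1563)*. Log2 values that turned sign ranged as follows. In *mbl-1(tm1563)* against the wild type, *far-5* from -0.63 to 0.25, *far-7* from -0.17 to 1.14 and *far-8* from -0.043 to 0.23. In *mec-7(u278) mbl-1(tm1563)* against *mec-7(u278)*, *far-2* from -0.40 to 0.0040, *far-6* from -0.34 to 0.10 and *far-8* from -0.016 to 0.40. In *mec-7(u278)* against the wild type, *far-1* from -0.52 to 0.12, *far-5* from -0.042 to 0.17 and *far-7* from -0.38 to 0.68. In *mec-7(u278) mbl-1(tm1563)* against *mbl-1(tm1563)*, *far-2* from -0.37 to 0.040, *far-6* from -0.41 to 0.069 and *far-8* from -0.30 to 0.11. In *mbl-1(tm1563); mec-3(unk206)*, *far-3* from -0.31 to 0.21 and *far-6* from -0.14 to 0.094. In *mec-3(u184)* against *mec-3(unk206)*, *far-2* from -0.044 to 0.068, *far-6* from -0.096 to 0.033 and *far-8* from -0.084 to 0.25. In *mec-3(syb8382)* against *mec-3(unk206)*, *far-2* from -0.074 to 0.095 and *far-6* from -0.037 to 0.074, and against *mec-3(u184)*, *far-2* from -0.086 to 0.082 and *far-5* from -0.53 to 0.060. Depth limited *far-4*, with at most 14 counts in a library, and the interactions were not refitted with libraries left out.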
